A study of Mus musculus with 8 samples.

Results

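Narrow m6A peaks in the first exon of a transcript were examined, that is, peaks of 500 bp or less whose annotation names exon 1 of a transcript. They numbered 742 of the 20732 peaks in 4 lists. Of these, 365 lay in transcripts annotated with a single exon and 377 lay in the first exon of a transcript with more exons. The choice used the annotation and the width alone, not the score. Peaks that the annotation calls 5′ or 3′ UTR are a separate class and were not counted here, so a peak called exon 1 is one the annotation did not place in a UTR.

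RAW264.7 cells, a mouse macrophage line, were left untreated (Control) or exposed for 24 h to 100 µM of 1 of 3 compounds, TBP, TCP and TIP, whose names the labels do not spell out. RNA fragments were enriched with an m6A antibody (MeRIP-seq), with 1 immunoprecipitated library per condition, and each library has 1 peak list. The libraries thus have no replicates: no p-value is given, and each interval below is an exact 95% Clopper-Pearson interval unless stated otherwise, covering counting error only. The lists held 4432 peaks for Control, 6285 for TBP, 6981 for TCP and 3034 for TIP, and read depth was not analysed here. In peaks, fewer marked transcripts, less RNA and a lower chance of calling a peak cannot be told apart. Of 10 macrophage marker genes, 5 held a peak in the Control list, 5 in TBP, 3 in TCP and 2 in TIP, and none of 22 markers of T cells, B cells, epithelium, endothelium or fibroblasts held one in any list.

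N6-methyladenosine (m6A) is written onto nascent RNA by a complex around the methyltransferases Mettl3 and Mettl14, with Rbm15 and Rbm15b among the proteins that bring the complex to RNA. The mark is best known near stop codons and in long exons. Protein complexes deposited at exon junctions keep the methyltransferase away from short exons, while long exons and transcripts without introns lack nearby junctions over much of their length. The methylated adenosine usually sits in a short consensus, a purine, A and C, with preferences on either side.

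Bases could be shown for 6 of the 742 peaks, those lying whole inside the stretch from 250 bases before to 50 bases after a RefSeq gene start (GRCm38.p6). They are shown because they lie at or near an annotated gene start, not always that of the host, and they are not the strongly scored members described further on. Each is written 5′ to 3′ on the strand of the peak. Capitals mark every match to NGACN or NAACN in which the first base is not C and the last is not G, a form of the m6A consensus.
Hdgf, TBP, chr3:87906646-87906670, plus strand: cagaaagagtacaagtgcggAGACC
Itga4, TBP, chr2:79255426-79255475, plus strand: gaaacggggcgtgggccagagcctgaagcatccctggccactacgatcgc
Lncpint, TBP, chr6:31218474-31218498, minus strand: atagagaggcctctccggtgtcaca
Yars, TIP, chr4:129189910-129189934, plus strand: gcaacccgacgGGACTagcgTGACA
2010016I18Rik, TBP, chr3:106485842-106485891, minus strand: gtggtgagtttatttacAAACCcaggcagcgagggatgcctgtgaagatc
2010016I18Rik, TCP, chr3:106485817-106485891, minus strand: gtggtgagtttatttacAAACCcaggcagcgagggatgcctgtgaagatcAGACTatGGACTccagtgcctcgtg

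The Itga4 peak, in the gene of an integrin subunit, began at the RefSeq start and held no match. The Yars peak, in a tyrosyl-tRNA synthetase gene, lay 7 to 31 bp after the start and held 2 matches. The Hdgf peak lay 180 to 204 bp before the RefSeq start, in exon 1 of another annotated transcript. The TBP and TCP peaks of the lncRNA 2010016I18Rik shared their 5′ end, and the longer TCP peak added 2 matches to the 1 they share. Their window is that of another gene, Dennd2d, on the other strand: they lay 149 to 198 bp (TBP) and 149 to 223 bp (TCP) before its start. On the opposite strand of the peaks, 1 match each was found in the Lncpint peak and in both 2010016I18Rik peaks, and none in the other 3. Among 32851 gene-start windows, a match on the gene's strand was present in 30.7% of the last 25 bases, 54.4% of the last 50 and 67.5% of the last 75, so a match in such short stretches is common. The percentile ranks of these 6 peaks within their lists ran from 19.5 for Hdgf to 53.3 for the TBP peak of 2010016I18Rik.

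Control held 150 members (77 in single-exon transcripts, 73 in first exons), TBP 225 (111 and 114), TCP 257 (121 and 136) and TIP 110 (56 and 54). The class was larger in TBP and TCP than in Control and smaller in TIP, in step with the length of the lists. Relative to Control, the number of members was 1.5 times for TBP, 1.71 times for TCP and 0.733 times for TIP, against 1.42, 1.58 and 0.685 for all peaks. Members made up 3.38% (2.87 to 3.96) of the Control list, 3.58% (3.13 to 4.07) of TBP, 3.68% (3.25 to 4.15) of TCP and 3.63% (2.99 to 4.35) of TIP, intervals that overlap. The split between the classes was near even in every list, with single-exon members at 51.3% (Control), 49.3% (TBP), 47.1% (TCP) and 50.9% (TIP). Widths ran from 25 to 276 bp with a median of 50 bp. The width limit left out 8 exon 1 peaks, the narrowest of them 508 bp wide.

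**Figure D1:**
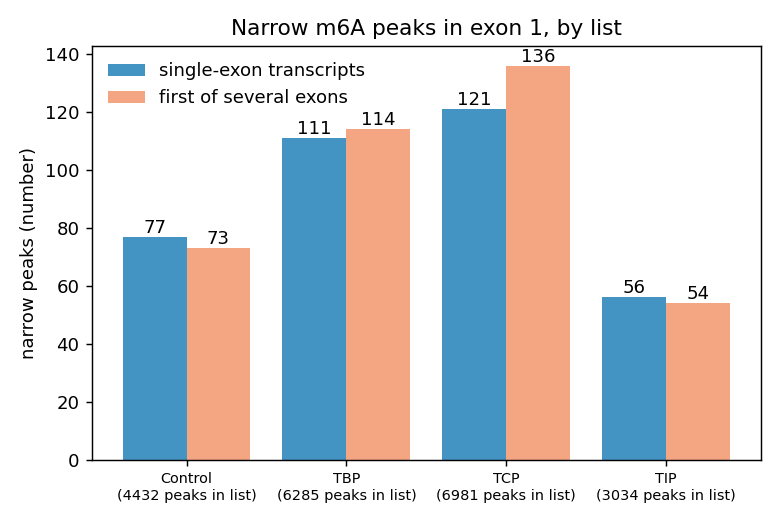
Number of narrow exon 1 peaks (vertical axis) in each of the 4 lists, as bars for single-exon transcripts and for first exons of transcripts with more exons; the total length of each list stands under its name. TCP has the tallest bars (121 and 136) and TIP the shortest (56 and 54), the order of the list lengths.

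The hosts were 162 genes with a RefSeq symbol, 61 with single-exon members and 101 with first-exon members, and no gene was in both groups. In the single-exon class 226 of 365 peaks lay in 53 protein-coding genes, 33 in 4 lncRNA genes and 95 in transcripts without a gene number. In the first-exon class 305 of 377 lay in 92 protein-coding genes, 32 in 9 lncRNA genes and 40 in transcripts without a number. The hosts differed in size in the way their structure implies: 58 of 61 single-exon hosts spanned under 10000 bp, against 20 of 101 first-exon hosts. Summed over the 4 lists, 40 hosts of 5 or more members held 373 of the 742 peaks, 606 of which have a named host, while 60 hosts held 1 member each. A place with a peak in several lists counts once for each list in these sums: the 5 members of Trim41, for example, form 1 region. The spread over genes was not compared with that of all peaks. In Control 77 genes were hosts, in TBP 106, in TCP 117 and in TIP 55, and 37 were hosts in all 4 lists.

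The class leaves out peaks called 5′ UTR, so a low number of members near the start of coding transcripts is in part set by the rule. Among the 209 single-exon members whose own transcript start was the nearest one in the lists (55 genes), the median distance from the start was 1162 bp, or 0.383 of the transcript length, and 6 lay within 200 bp. Among the 115 first-exon members with this property (41 genes) the median was 607 bp, with 28 within 200 bp and 60 beyond 500 bp. The lists name the transcript with the nearest start of any gene, so both figures cover only members with no other start closer by. Members against the strand of the host were left out of them.

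Among single-exon regions chosen for having a peak in all 4 lists, those with the best mean rank are given first. Neat1, the lncRNA that scaffolds nuclear paraspeckles, held a region at chr19:5843783-5844057 on the minus strand with percentile ranks of 99.9 (Control), 99.9 (TBP), 100.0 (TCP) and 99.8 (TIP), where 100 is the best-scored peak of a list. Mgat2, a Golgi enzyme of N-glycan branching, held a region at chr12:69185582-69185731 (plus strand) ranked at 98.2, 98.4, 98.7 and 94.5 in the same order. All 4 libraries placed these regions among their best-scored peaks, and Mgat2 held 3 members in every list. Neat1 held 21 members in 13 regions, of which 1 had a peak in all 4 lists and 10 had a peak in 1 list alone. The merged Neat1 region above also holds a TBP peak, chr19:5843783-5843807 at 92.9, that overlapped no Control peak. High rank was not limited to shared regions: Malat1 held regions in 1 list alone that ranked at 99.9 in TIP and at 99.05 and 98.4 in Control.

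Pcbp1, which binds C-rich stretches of RNA, held a region at chr6:86525117-86525241 (minus strand) ranked at 93.7 (Control), 95.7 (TBP), 99.1 (TCP) and 67.7 (TIP). Fbxl14, an F-box subunit of a ubiquitin ligase, held one at chr6:119480668-119480917 (plus strand) ranked at 92.3, 91.0, 90.01 and 82.5. In both genes TIP had the lowest rank. Sephs2, which makes the selenium donor for selenoprotein synthesis, broke that pattern, with TBP lowest at 70.3 beside 96.5 in Control, 95.9 in TCP and 94.5 in TIP.

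Klhl9, an adaptor of a Cullin 3 ubiquitin ligase needed in mitosis, had the most members of any single-exon host, 24 in all. They numbered 5 (Control), 7 (TBP), 6 (TCP) and 6 (TIP), and lay 786 to 2074 bp from the transcript start over a stretch of 1350 bp. The 24 peaks merged into 8 regions, of which 4 had a peak in every list. Its strongest region, chr4:88720667-88720941 on the minus strand, ranked at 97.7 (Control), 99.1 (TBP), 98.4 (TCP) and 77.9 (TIP).

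First-exon regions were chosen in the same way, by a peak in all 4 lists and then by mean rank. Tug1, a lncRNA, held one at chr11:3646935-3647109 (minus strand) ranked at 99.4 (Control), 99.5 (TBP), 98.4 (TCP) and 94.5 (TIP). Ppp1r9b (spinophilin), a scaffold of protein phosphatase 1, held one at chr11:94992610-94992759 (plus strand) ranked at 98.5, 99.2, 98.9 and 94.5. The value of 94.5 recurs in TIP because 301 of its 3034 peaks share rank 17, 14 of the members among them. Differences between TIP and another list at this rank therefore cannot be read finely.

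Other first-exon regions in all 4 lists were in Atad2, a bromodomain ATPase, ranked at 89.7 (Control), 92.3 (TBP), 98.2 (TCP) and 94.5 (TIP), and in Cpne1, a calcium-dependent lipid-binding protein, at 92.2, 85.4, 94.5 and 94.5. Togaram1, a microtubule-binding protein of cilia, held 2 such regions. The first ranked between 91.8 and 94.5 in the 4 lists, and the second ranked at 76.5 (Control), 93.0 (TBP), 96.1 (TCP) and 94.5 (TIP). The second was merged from peaks that do not all overlap one another: its TCP peak at 96.1, chr12:64967604-64967653, overlapped no Control peak. In Ppp1r15b, the constitutive regulatory subunit of the eIF2α phosphatase, the strongest region ranked at 94.4 (Control), 96.3 (TBP), 85.0 (TCP) and 94.5 (TIP). A first exon here is that of the annotated transcript, which can start inside a longer gene. The Atad2 region, chr15:58098443-58098642, lies in a transcript of 4733 bp within a minus-strand gene at chr15:58094044-58135525. The Cpne1 region, chr2:156096905-156097054, also lies inside its minus-strand gene, at chr2:156071841-156111965. Neither is at the 5′ end of the whole gene.

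**Figure D2:**
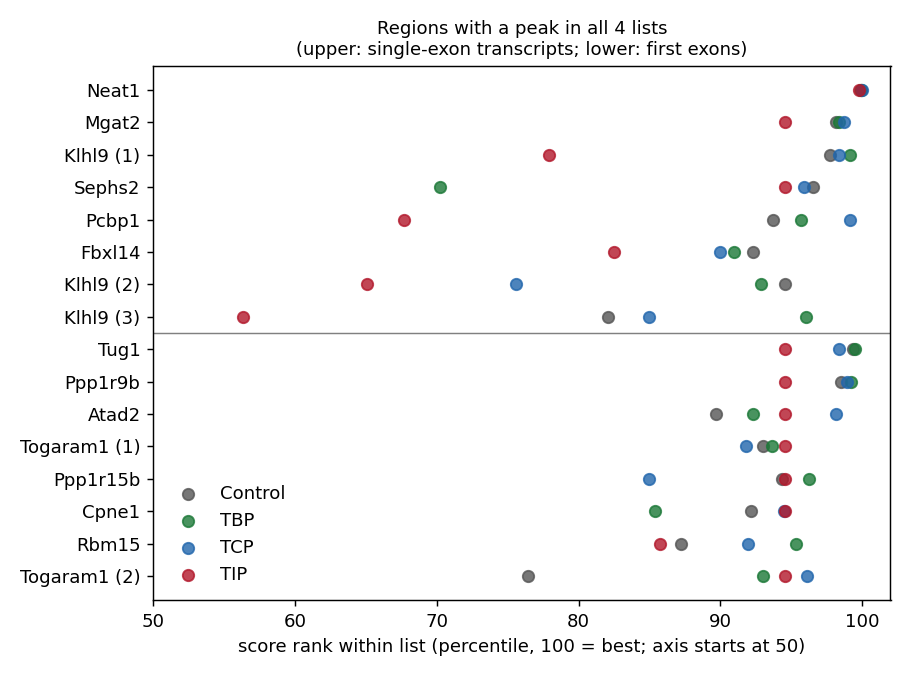
Score rank within the list (horizontal axis, percentile, 100 = best, starting at 50) of the 8 single-exon (upper) and 8 first-exon (lower) regions with a peak in all 4 lists and the best mean rank; each point is 1 list. Klhl9 has 3 regions and Togaram1 has 2, and the TCP point of the second Togaram1 region is a peak that overlaps no Control peak. TIP is the lowest point for Neat1, Mgat2, Klhl9, Pcbp1, Fbxl14, Tug1, Ppp1r9b and Rbm15, but not for Sephs2, Atad2, Togaram1, Ppp1r15b and Cpne1. Its points at 94.5 share 1 tied score.

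Rbm15, a subunit of the m6A methyltransferase complex, equalled Klhl9 with 24 members, all in the first of 2 exons. They numbered 5 (Control), 7 (TBP), 9 (TCP) and 3 (TIP), and lay 1660 to 3322 bp from the transcript start, far into a long first exon. Of its 10 regions, 1 had a peak in all 4 lists (chr3:107331476-107331700, minus strand), ranked at 87.2 (Control), 95.4 (TBP), 92.0 (TCP) and 85.7 (TIP). Another of its regions, chr3:107331326-107331425, had a peak in Control at 92.2 and in TIP at 94.5 and none in the other lists. A region farther downstream, chr3:107330276-107330475, had a peak in each compound list, ranked at 90.3 in TBP, 86.5 in TCP and 83.3 in TIP, and none in Control.

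Aftph, a protein of clathrin-coated vesicle traffic, held 21 members, 3 (Control), 7 (TBP), 9 (TCP) and 2 (TIP), over 1525 bp. Its 10 regions included 2 in all 4 lists and 5 in 1 list alone. Vcpip1, a deubiquitinase that works with the ATPase p97, held 3, 4, 5 and 4 members in that order, and Ppp1r15b held 3, 3, 6 and 4. In Aftph and Rbm15, TBP and TCP peaks without a Control peak lay both between Control peaks and in stretches beyond them.

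**Figure D3:**
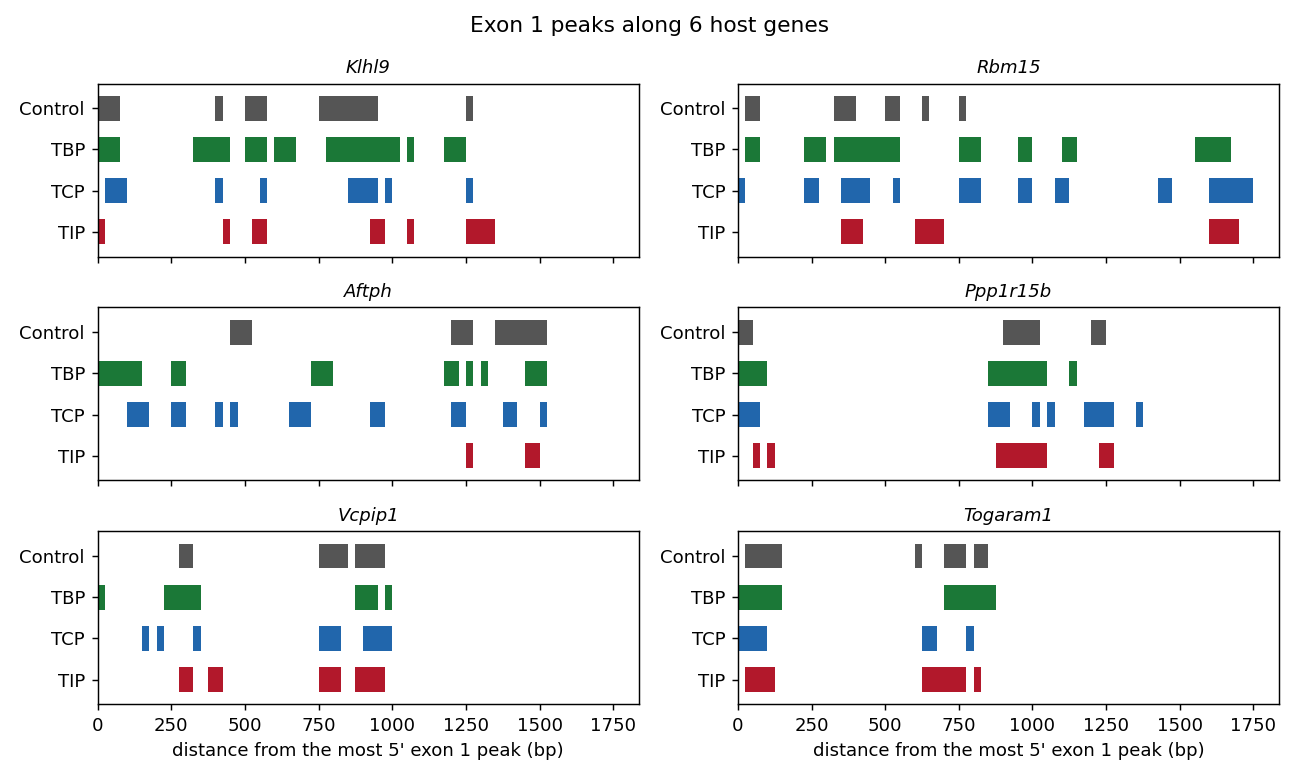
Exon 1 peaks (bars, to scale) in 6 host genes, by list, against the distance in bp from the most 5′ exon 1 peak of the gene in any list. Rbm15 peaks extend over 1750 bp, and those at the far right are in TBP, TCP and TIP but not in Control; 4 of the 8 Klhl9 regions hold a peak in every list.

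To compare lists, a peak was counted as shared if a peak of any annotation in the other list overlapped it by at least 1 bp on the same strand. Without a Control peak were 143 of 225 TBP members, 63.6% (56.9 to 69.8), against 60% of all TBP peaks. In TCP they were 169 of 257, 65.8% (59.6 to 71.5), against 64.6% of all TCP peaks. In TIP they were 46 of 110, 41.8% (32.5 to 51.6), against 48.2% of all TIP peaks. Each background share lay inside the members' interval, so the counts for members followed those of the whole lists.

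In the reverse direction, 64 of 150 Control members had no TBP peak, 42.7% (34.6 to 51.0), beside 42.7% of all Control peaks. No TCP peak was found for 62, 41.3% (33.4 to 49.7), beside 44.3% of all Control peaks. No TIP peak was found for 88, 58.7% (50.4 to 66.6), beside 64.7% of all Control peaks. Here too the backgrounds lay inside the intervals.

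The classes were further apart in TIP than in TBP or TCP. Beside the 48.2% of all TIP peaks, without a Control peak were 29 of 56 single-exon TIP members, 51.8% (38.0 to 65.3), and 17 of 54 first-exon TIP members, 31.5% (19.5 to 45.6). Of Control members, 52 of 77 single-exon and 36 of 73 first-exon peaks had no TIP peak, 67.5% (55.9 to 77.8) and 49.3% (37.4 to 61.3), beside 64.7% of all Control peaks. Both first-exon intervals lay below the share of all peaks, whereas both single-exon intervals held it. The intervals of the 2 classes overlapped each other in both directions, and neither difference was tested.

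**Figure D4:**
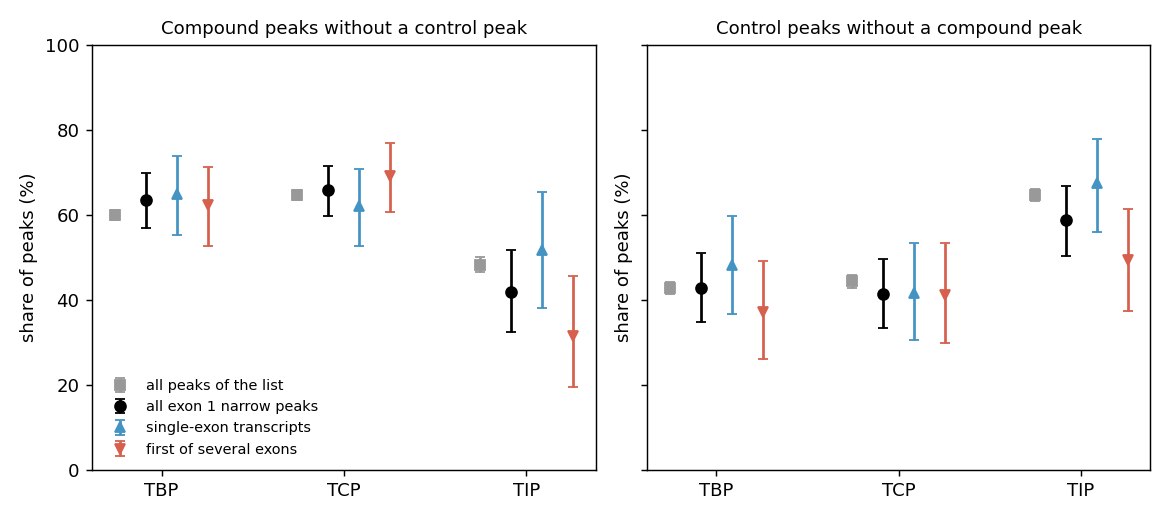
Left, share of compound peaks without a same-strand Control peak; right, share of Control peaks without a peak in the compound's list, in percent, for all peaks of the list, all exon 1 narrow peaks, single-exon transcripts and first exons. Bars are exact 95% intervals for counting error; the values for all exon 1 peaks have intervals that hold those of all peaks, first exons lie below them in TIP on both sides (31.5% and 49.3%), and for all exon 1 peaks TIP is lowest on the left (41.8%) and highest on the right (58.7%).

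The same 150 Control members allowed the compounds' lists, 1 library each, to be compared at matched dose and time, in 3 pairs. TBP kept 57.3% of them, TCP 58.7% and TIP 41.3%. TCP minus TBP was 1.33 points, and its 95% interval, by the normal approximation over paired peaks, ran from -7.33 to 10.0 and so included no difference. TIP minus TBP was -16.0 points (-24.5 to -7.52) and TIP minus TCP was -17.3 points (-26.2 to -8.52). With peaks at or above each list's median score, a cut that leaves the lists unequal in length, these 2 differences were -23.75 (-34.8 to -12.7) and -21.25 (-34.1 to -8.43) points. They did not hold once each list was reduced to its 3034 best-scored peaks, the length of the TIP list: they were then -3.70 (-12.9 to 5.52) and -5.56 (-15.4 to 4.33) points. In all 3 pairs the units of the interval are peaks, some of them in the same gene. With 1 library per compound, the intervals leave out variation between libraries, so they describe these lists and cannot show a difference between compounds.

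At this equal length the members without a Control peak were 45.3% in TBP, 42.1% in TCP and 44.5% in TIP, beside 44.1%, 46.5% and 51.3% of all peaks. Control members without a compound peak were 41.7% for TBP, 39.8% for TCP and 45.4% for TIP, beside 43.4%, 46.5% and 51.8% of all peaks. The 3 compounds were thus closer to one another than in the full lists. How much of the order in the full lists comes from their length was not tested beyond this.

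A compound peak without overlap was in part a neighbour of a Control peak. Of the members without a Control peak, 28 of 143 in TBP had one within 100 bp on the same strand, 19.6% (13.4 to 27.0), beside 20.1% of all such TBP peaks. For TCP they were 30 of 169, 17.8% (12.3 to 24.4), beside 19.9%, and for TIP 12 of 46, 26.1% (14.3 to 41.1), beside 31.7%. Among members without a Control peak in named hosts, 52 of 109 in TBP, 62 of 138 in TCP and 21 of 38 in TIP lay in genes that did hold an exon 1 peak in Control. The same share over all peaks was not computed, so these counts cannot be called high or low for the class. Hsp90b1, an endoplasmic reticulum chaperone, is a case of such a gene: its TBP member without a Control peak ranked at 97.5, and its exon 1 also held a Control member at 90.9.

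Among the best-ranked members without a Control peak, Scaf11, a splicing-related protein, recurred in all 3 compounds. Its first exon of a 5-exon transcript held no member (Control), 1 (TBP), 2 (TCP) and 3 (TIP), with best ranks of 93.5, 96.8 and 83.3. That transcript, of 6994 bp, starts inside the gene, which spans 49291 bp. One region, chr15:96418399-96418573 on the minus strand, was shared by TBP, TCP and TIP. Over the whole Scaf11 gene, Control held 2 peaks, TBP 7, TCP 8 and TIP 6, so the gene was not without peaks in Control. Nom1, a nucleolar protein, had a TIP member at 84.2, and Zfp830, a zinc finger protein, had a TCP member at 88.4, both at places without a Control peak. For the lncRNA 1700034P13Rik, the TCP member at 87.4 lay on the strand opposite to the gene.

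Of 423 merged regions, 9 were shared by TBP, TCP and TIP and absent from the Control list, 2.13% (0.977 to 4.0), beside 1.83% of 11519 regions merged in the same way from narrow peaks of any annotation. Besides those of Rbm15 and Scaf11 they were 2 each in Smcr8 and Cenpb, 1 each in Wdr5b and Jun, and 1 in a transcript without a gene number, named here after their values were seen. Smcr8, a partner of the C9orf72 protein in autophagy, held its stronger region at chr11:60778299-60778423 (plus strand), ranked at 78.0 in TBP, 82.5 in TCP and 81.5 in TIP. Cenpb, the centromere protein that binds satellite DNA, had a stronger region ranked at 95.2, 73.7 and 94.5, of which only the TCP peak is annotated as exon 1, and over its whole span Control held 1 peak against 3, 4 and 2. Haspin, a histone H3 kinase of mitosis also chosen after its values were seen, had no peak in Control over its span and 1, 2 and 1 in the compounds. The ranks of Wdr5b, a relative of the chromatin protein Wdr5, were lower, at 47.9, 61.1 and 15.1.

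Control members without a compound peak were led by the nuclear lncRNAs Malat1 and Neat1. Malat1 held 3 members in Control, ranked up to 99.1, none in TBP, none in TCP and 1 in TIP at 99.9, at another place in the transcript. H1f3, a linker histone, held 1 member in Control ranked at 92.4 and no peak over its span in the other lists. Hnrnpa0, an RNA-binding protein, held 1 member in every list, but the Control member at 96.0 had no TCP counterpart, because the TCP member lay elsewhere in the transcript, at 67.0. Hosts in Control alone numbered 11 of the 77 Control hosts, a share that was not computed for genes with peaks of any annotation. They included Rbm15b and, named after its values were seen, Cgas, the sensor of cytosolic DNA, both with 1 member at a rank of 7.47, near the bottom of the list. Over their whole spans, Rbm15b held 2, 1, 1 and 1 peaks and Cgas 2, 1, 2 and 1 in Control, TBP, TCP and TIP. Of the 11 genes, 8 held a peak of some annotation in at least 1 compound list, and H1f3, Snx19 and Trmt12 held none. At the Chd8 member itself, all 3 compound lists had a peak under another annotation.

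Recurrence was close to that of the lists as a whole. By region, 249 of 423 (58.9%, 54.0 to 63.6) were in 1 list, 81 in 2, 42 in 3 and 51 (12.1%, 9.11 to 15.6) in all 4, beside 60% in 1 list and 10.8% in all 4 for narrow peaks of any annotation. All 4 lists were reached by 21 of 215 single-exon and 30 of 208 first-exon regions. The most frequent patterns were TCP alone (104 regions), TBP alone (82), all 4 lists (51), TBP with TCP (45), Control alone (38) and TIP alone (25). By peak, 28.0% of Control members had a peak in all 4 lists, beside 23% of all Control peaks. In TBP the share was 20.4% beside 17.1%, in TCP 15.2% beside 15.1%, and in TIP 36.4% beside 31.6%. The intervals of the members, 21.0 to 35.9, 15.4 to 26.3, 11.0 to 20.2 and 27.4 to 46.1, all held the background. Members in no other list were 25.3% beside 24.2% of all peaks in Control, 36.4% beside 37.3% in TBP, 40.5% beside 42.3% in TCP and 22.7% beside 25% in TIP.

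Members shared by all 4 lists ranked higher and were wider than those in 1 list. In TBP, the shared members had a median percentile of 88.3 and a median width of 112 bp, against 19.5 and 25 bp for members in TBP alone. The corresponding medians were 77.5 and 29.8 in Control, 89.0 and 29.3 in TCP, and 73.9 and 27.9 in TIP. The same order held among all peaks, for example 86.7 against 28.6 in TBP. A wider peak has more bases in which to overlap another, and the share of this in the pattern was not tested.

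**Figure D5:**
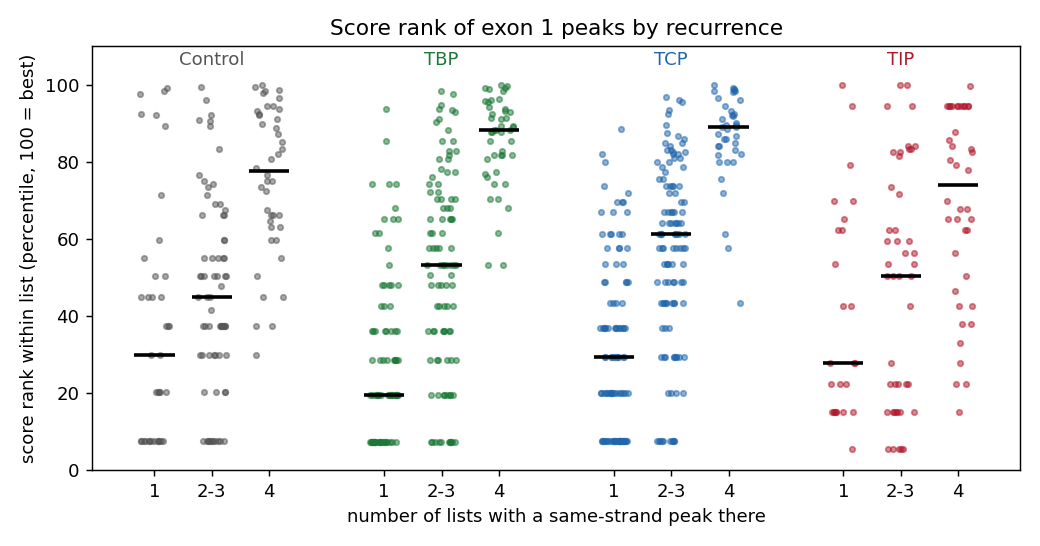
Score rank within the list (vertical axis, percentile, 100 = best) of each exon 1 peak, grouped by list and by the number of lists with a same-strand peak there; black lines are medians. In each list the median rises with the number of lists, for example from 19.5 to 88.3 in TBP, with wide overlap between the groups.

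Members as a whole were not ranked apart from all peaks of their list. Their median percentile, with an exact order-statistic 95% interval, was 50.3 (44.8 to 59.6) for Control, 50.6 (42.7 to 57.7) for TBP, 53.5 (48.9 to 57.6) for TCP and 56.3 (46.5 to 65.1) for TIP. For all peaks the medians were 50.3, 47.9, 48.9 and 50.3, each inside or at the edge of the members' interval. Over all lists, narrow peaks in last exons had a median of 53.3, in internal exons of 47.9 (44.8 to 48.9) and in 5′ UTRs of 43.2 (38.0 to 46.5). Single-exon and first-exon members both had a median of 53.3. For all members the interval was 48.9 to 56.3, above that of 5′ UTR peaks. Percentiles above 90 were held by 15.3% (Control), 12.0% (TBP), 8.17% (TCP) and 16.4% (TIP) of members. Among all peaks these shares were 10.2%, 9.94%, 10.2% and 10.45%. The lncRNA hosts of the single-exon class stood higher, with a median of 89.2 over 33 peaks, 25 of them in Neat1 and Malat1.

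Of 39 immediate early and intronless regulators, a class known for genes with few or no introns, 5 were hosts. Irf2bp1, a corepressor partner of Irf2, held 1 member each in Control, TBP and TCP, ranked at 66.1, 28.6 and 83.0. The AP-1 subunits Jun, Junb and Jund held 5 members together, all in TBP or TCP and ranked at 57.7 or lower. Peaks under other annotations were present too: over the whole gene, Control held 2 peaks in Jun, 1 in Junb and 1 in Jund, and TIP held 2 in Jun and 1 in Jund. The place of the Jun member also carried a TCP peak at 98.6 and a TIP peak at 94.5 that were not annotated as exon 1. Of 29 matched lncRNAs 6 were hosts, of 24 RNA-binding and m6A machinery genes 3 (Rbm15, Rbm15b and Hnrnpa0), of 20 chromatin factors 2 (Kmt2c and Arid1a), and of 76 histone genes 2 (H1f3 and H1f4). None of 21 apoptosis and signalling genes, 9 heat shock and ubiquitin genes or 23 macrophage surface and effector genes was a host. The share of hosts among all genes, or among genes with a peak of any annotation, was not computed. These counts therefore cannot be called high or low. Peaks that the annotation places in a UTR or a later exon of these genes lie outside this class.

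Members without a gene number behaved less evenly. In single-exon transcripts of this kind the median percentile was 29.8 (22.3 to 41.6) over 95 peaks, against 56.3 (50.3 to 61.1) over 226 peaks of protein-coding hosts. In 1 list alone were 49.5% (39.0 to 59.9) of the former and 25.7% (20.1 to 31.9) of the latter. For first exons the shares in 1 list alone were 52.5% (36.1 to 68.5) of 40 peaks without a number and 30.5% (25.4 to 36.0) of 305 in protein-coding hosts. Of the 135 peaks without a number, 132 lay within the span of a RefSeq gene on either strand, and 98 within that of a protein-coding gene. Genes on the strand of the peak were not counted apart, so the source of these peaks was not tested.

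Strand was checked because the annotation does not use it. Of 591 members whose host strand is known, 576 lay on that strand and 15 against it, and 13 of the 15 had another peak on the opposite strand at the same place in the same list. Over all members, 51 of 742 (6.87%, 5.16 to 8.94) had such an opposite-strand peak, against 4.06% of all peaks. The share was 40.0% (24.9 to 56.7) for first exons without a gene number and 34.4% (18.6 to 53.2) for first exons of lncRNAs, but 0.656% (0.0795 to 2.35) for first exons of protein-coding genes. For single-exon members of protein-coding genes it was 3.54% (1.54 to 6.86), an interval that holds the share of all peaks.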

How the data were processed

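Peak lists of 4 immunoprecipitated libraries were used, 1 per condition; the input libraries were not analysed here. Per the submitters' processing notes, which give no role or order, deepTools 3.5.0, HOMER 4.11, ChIPseeker 1.26, Picard 2.23.5, SAMtools 1.9, FastQC 0.11.9, StringTie 2.1.4, DESeq2 1.30.1, HISAT2 2.1.0 and Trim Galore 0.6.5 were used, on GRCm38 (mm10). Which peak caller was run, and its threshold, is not given in the sources used here. The authors' deposited score per peak has no stated scale and takes 223, 253, 214 and 44 distinct values in Control, TBP, TCP and TIP, so it was ranked within each list only, ties at their mean rank. Widths are as the authors deposited them. The distance from the transcript start was computed from the middle of each peak and the deposited start or end of that transcript.

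Exon 1 and exon number were read from the deposited annotation. The host is that transcript's gene, named through RefSeq (GRCm38.p6); 606 of 742 members have a symbol. Overlap was counted at 1 bp or more on the same strand, in Python 3.11.15 with pandas 2.3.3 and SciPy 1.17.1, and tested on simulated data. Named are the 8 single-exon and 8 first-exon regions shared by the 4 lists whose mean rank was best, the 5 best-ranked members gained or lost per compound, the 6 genes with most members and the hosts among the gene lists, not all of them told. Members and gene lists were chosen with earlier results of these data known. The 100 bp neighbourhood, the host kinds, the whole-gene counts and the merged regions of all narrow peaks were added after the data were seen.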

Additional observations from a re-analysis of the deposited data

How the results depend on the processing

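Each condition has 1 library, so no replicate could be left out. No paired analysis was possible because each group holds a single library. Of the alternative values, 83 stayed within the interval of the full-list value or, for counts, within 1.5 times of it, among them all those with overlap of 50% of the shorter peak, overlap on either strand, overlap with exon 1 narrow peaks only, and a width limit of 200 bp. None changed sign where the interval left out 0. The other 21 came from selecting peaks by score. With 3034 best-scored peaks per list, members fell to 106 in TBP and 114 in TCP, hosts to 98, members without a Control peak to 45.3% in TBP and 42.1% in TCP, and Control members without a TIP peak to 45.4%. The kept share differed by -3.70 points for TIP minus TBP and by -5.56 points for TIP minus TCP, and 20.6% of regions were in all 4 lists. With peaks at or above each list's median score, members were 80 (Control), 123 (TBP), 145 (TCP) and 65 (TIP), hosts 100, and Control members without a TBP peak 32.5%. At that setting the kept share differed by -23.75 points for TIP minus TBP and by -21.25 points for TIP minus TCP, both within the full-list intervals. The shorter lists account for the smaller counts by construction. The cause of the other changes was not tested.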
